A study of Danio rerio with 20 samples.

Results

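Genes of the contractile filaments were followed through RNA libraries of sorted zebrafish oligodendrocyte precursor cells (OPCs), the glial progenitors that give rise to myelinating oligodendrocytes. Members were picked by a pattern of gene names that contains no measured value, although the pattern and the classes below were set with earlier results of these data known. The names cover the troponins, the myosin light and heavy chains, tropomyosins, alpha actins of skeletal and smooth muscle, alpha-actinins of the Z disc, myosin-binding protein C, titin, nebulin and telethonin. This rule matched 76 of the 31743 genes in the deposited tables. By symbol, 24 of them were placed with fast muscle, 8 with slow muscle and 21 with the heart. A further 8 were placed as shared by striated muscles (called pan-sarcomere here), 5 as smooth muscle forms and 10 as non-muscle forms. Counts per gene do not separate the transcripts of a gene. Whether reads of the tropomyosin genes tpm3 and tpm4a, placed with the non-muscle forms, came from muscle or non-muscle transcripts was not tested.

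The series holds 20 libraries in 4 groups of 5. Over 16 h, fish received either 4-aminopyridine (4AP), a blocker of voltage-gated potassium channels, or demyelination induced through capsaicin and its receptor channel TRPV1. A separate control group accompanied each treatment. The strain, age, sorting reporter and number of fish per library are not given in the sources used here, nor are the cells in which TRPV1 was expressed. Nothing in the labels says that libraries of a group came from separate animals or pools, so p-values measure only the spread between these samples, which may be technical.

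The sarcomere is the repeating unit of striated muscle, in which myosin filaments pull on actin filaments. Troponin C, I and T sit on tropomyosin along the actin filament and switch contraction on when calcium binds, titin spans from the Z disc to the middle of the sarcomere, and nebulin runs along the thin filament. Fast, slow and cardiac muscle build it from different paralogs, and teleost fish keep extra copies of many of them. Non-muscle myosin, its light chains and short tropomyosins work in the cortex and the moving edge of most cells, glial cells included, whereas sarcomeric paralogs are textbook products of muscle fibres.

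Libraries differed widely in depth. The 4AP controls had 163158 to 897620 total gene reads and the 4AP libraries 356494 to 1744483. The demyelination controls had 1180 to 282966, and the libraries of demyelinated fish 38314 to 3528970. Demyelination control 1 was the library with 1180 reads, of which 6 fell on members, so most results that include it are also given without it. The names of the deposited tables begin with P1, P2 or P3, and what these prefixes stand for is not given in the sources used here. P1 marks 4AP controls 1 to 4, P2 marks 4AP control 5 and the 5 4AP libraries, and P3 marks the 10 libraries of the demyelination experiment. In the 4AP experiment the prefix and the treatment are therefore tied except through 4AP control 5. Libraries were made with a 3' kit, and reads in exons and introns were counted and not divided by length. Read numbers are therefore not ranked as levels between genes. Every one of the 9 OPC markers examined (among them olig2, sox10 and pdgfra) had reads in each group. Their summed counts per 1e+06 gene reads of the library (CPM) had medians of 439, 861, 647 and 342 in the order 4AP control, 4AP, demyelination control and demyelination, which is used for all 4 groups from here on. No OPC marker had a read in demyelination control 1, and without it the median of its group was 654. The OPC sums ran from 247 to 517 CPM in the 4AP controls and from 697 to 904 CPM in 4AP. Control 5, the single P2 control, had the highest of the control sums, 517 CPM. The exon share and the number of genes with a read split by prefix. Exons took 61.5% to 65.7% of gene reads in P1 and 70.2% to 79.5% in P2, and 9750 to 11048 genes had a read in P1 against 17096 to 22644 in P2.

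Reads of muscle-type filament genes were found in all 20 libraries. The 76 members took between 0.275% and 1.0996% of a library's gene reads, with group medians of 0.538%, 0.462%, 0.591% (0.654% without demyelination control 1) and 0.611%. The members with a read numbered 42 to 73 per 4AP control, 68 to 74 per 4AP library, 6 to 66 per demyelination control and 47 to 75 per demyelination library. The 6 were those of demyelination control 1. Of the 76 members, 21 had a read in each of the other 19 libraries, and 1, the slow troponin I gene tnni1a, had no read in any.

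Fast muscle genes gave 44325 of the member reads summed over the 20 libraries, or 63.3%. The share was 13.95% for pan-sarcomere genes, 13.8% for non-muscle genes, 4.70% for cardiac genes, 2.92% for slow genes and 1.32% for smooth muscle genes. The non-muscle and slow shares depend on where tpm3 is placed, as it had 2227 reads and the whole slow class 2042. Where tpm4a is placed matters likewise, as it had 1183 reads and the whole cardiac class 3294. These sums, and the exon shares below, lean on demyelination 5, which gave 31258 member reads, 18793 of them fast. In single libraries other than demyelination control 1 the fast share ran from 51.8% to 78.2%. The fast reads lay in exons in 98.6% of cases, against 68.0% for all genes. The exon share was 90.5% for pan-sarcomere, 86.4% for slow, 77.2% for non-muscle, 75.2% for cardiac and 70.8% for smooth muscle members. All 223 reads of tnni3k, a kinase matched by its name and no filament protein, lay in introns, as did 85.5% of the reads of the non-muscle heavy chain gene myh9b. In the deposited counts an intron read of such a gene cannot be told apart from a read of another transcript lying there, and whether counting used strand is not given in the sources used here.

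**Figure D1:**
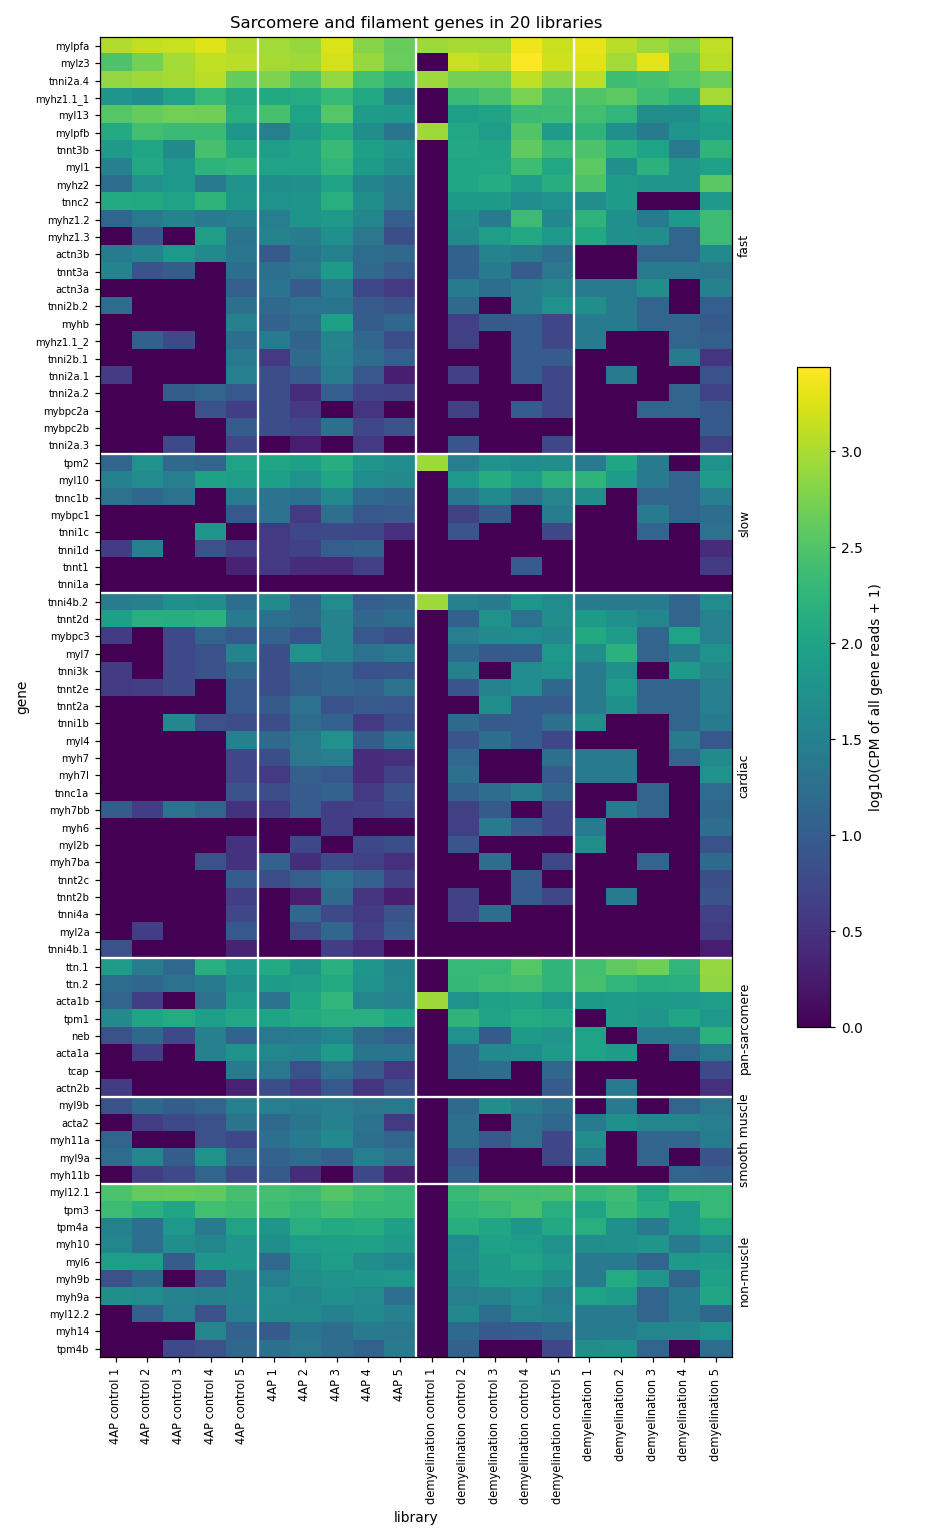
Each row is a member gene and each column a library, with colour giving log10 of CPM + 1 over all gene reads. White lines separate the 4 groups and the 6 classes. Rows at the top of the fast block (mylpfa, mylz3, tnni2a.4) are bright in nearly every library, most cardiac rows are dark in 4AP controls 1 to 4, and demyelination control 1 holds single reads only.

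The summed level of the fast class overlapped between all 4 groups. Its reads numbered 966, 1149, 940, 996 and 3291 in 4AP controls 1 to 5 and 1181, 3135, 3728, 4095 and 1495 in 4AP libraries 1 to 5. In the demyelination experiment they numbered 3, 1102, 452, 946 and 1141 in the controls and 295, 135, 317, 165 and 18793 in the demyelinated fish. As CPM, the group means of the sum were 4215 ± 1177, 3157 ± 1680, 4761 ± 2322 and 4395 ± 1982 (SD, n = 5 each). The ranges were 2985 to 6105, 1425 to 5892, 2542 to 8604 and 1984 to 7232. The 2542 rests on the 3 reads of demyelination control 1, without which the demyelination controls had 5316 ± 2267 (SD, n = 4) and a range from 3733. The level in a single library thus varied by more within a group than the group means differed. In these bulk samples, fewer cells of a type and less RNA per cell cannot be told apart.

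Among the other classes, the pan-sarcomere sum had higher medians in the demyelination experiment than in the 4AP experiment. It ran from 155 to 402 CPM (median 165) in the 4AP controls and from 247 to 751 (median 407) in 4AP. In the demyelination experiment it ran from 686 to 928 (median 700) in controls and from 541 to 1849 (median 784) in demyelination. Within the 4AP controls, the highest value, 402 CPM, belonged to replicate 5, the P2 library. The non-muscle sum had medians of 744, 857, 776 and 735 CPM. The slow sum had medians of 142, 172, 240 and 183 CPM, the cardiac sum 198, 163, 322 and 475 CPM, and the smooth muscle sum 57.5, 88.6, 57.8 and 78.3 CPM. Without demyelination control 1 the medians of the demyelination controls were 694 for the pan-sarcomere, 826 for the non-muscle, 197 for the slow, 316 for the cardiac and 60.7 for the smooth muscle sum. For each of these 5 classes the range of each treatment overlapped that of its own control, with or without that library.

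**Figure D2:**
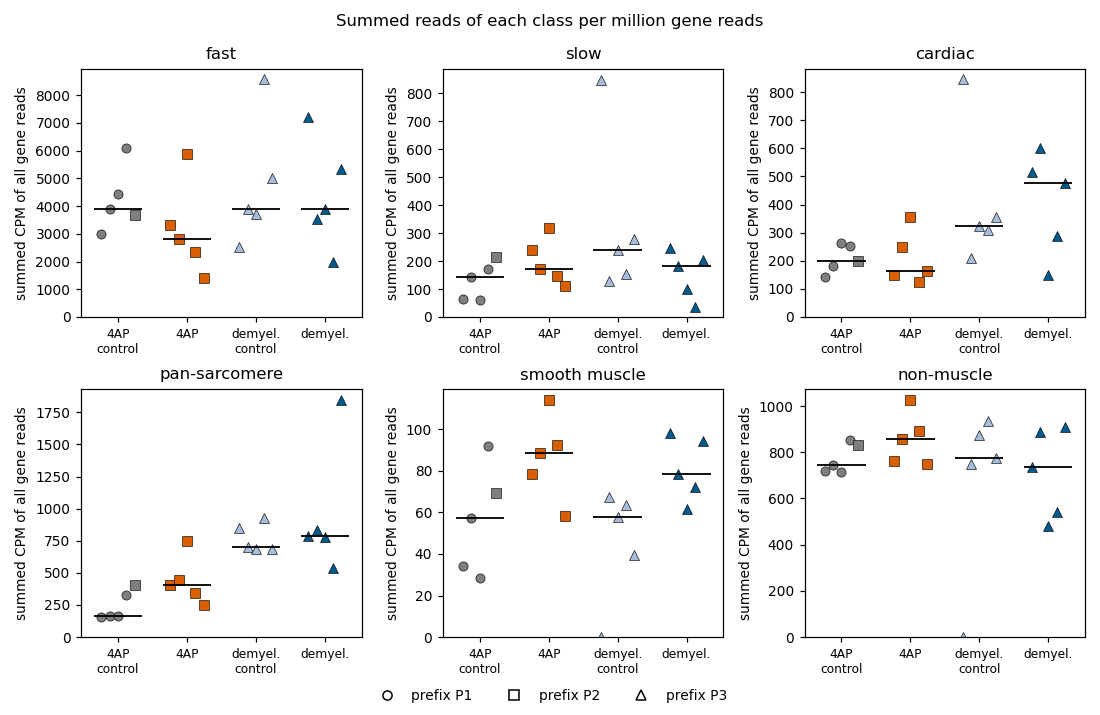
Summed CPM (linear axes) of each class in every library, with a horizontal line at each group's median and the marker shape giving the prefix of the table's name. Fast sums overlap across the groups, and the pan-sarcomere sum has its 3 lowest values, near the 4AP control median of 165, in P1 libraries and its highest, 1849, in demyelination 5. In the slow, cardiac and pan-sarcomere panels the demyelination control point at 847 is 1 read in demyelination control 1.

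Fast light chains led the member reads. The regulatory light chain gene mylpfa gave 349, 385, 294, 310 and 947 reads in the 4AP controls and 323, 870, 1112, 1123 and 456 in 4AP. In the demyelination experiment it gave 1, 275, 115, 249 and 333 reads in controls and 82, 46, 68, 51 and 4516 in demyelination. With mylpfb, tnni2a.4 and tnni4b.2 it was 1 of 4 members that had a read in every library. By number of reads it ranked between 35 and 236 among all genes of a library. The essential light chain gene mylz3 gave 97, 152, 191, 208 and 1079 reads in the 4AP controls and 331, 998, 1013, 1394 and 471 in 4AP. It gave 0, 401, 145, 300 and 349 reads in the demyelination controls and 75, 35, 160, 35 and 4150 in demyelination. Demyelination control 1 aside, the ratio of these light chain genes was lowest in the P1 controls, while the P2 and P3 libraries overlapped. There were 27.8 to 67.1 mylz3 reads per 100 mylpfa reads in the 4 P1 controls, against 91.1 to 124 in the 5 4AP libraries, and 4AP control 5 stood at 114. In 9 P3 libraries, without demyelination control 1, the ratio was 68.6 to 235.

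In several sets of duplicated genes 1 copy carried most of the reads, and in others the reads summed over the libraries were nearly even. On chromosome 25, between positions 31222069 and 31288658 (GRCz11, the build named in the submitters' processing notes), lie the fast troponin I genes tnni2a.1 to tnni2a.4. Of their 5267 reads, 96.8% belonged to tnni2a.4, and its share was 90% to 100% in every library. Of the 12838 reads of the mylpf pair, 92.7% belonged to mylpfa on chromosome 3 and the rest to mylpfb on chromosome 12. The fast troponin T reads belonged to tnnt3b in 86.5% of cases, and the reads of the acta1 pair to acta1b in 69.8%. Outside demyelination control 1, the share in single libraries ran from 50% to 100% for tnnt3b and from 35% to 100% for acta1b. The adjacent titin genes on chromosome 9 shared 6646 summed reads almost evenly, 51.8% for ttn.1 and 48.2% for ttn.2. Demyelination 5 alone gave 5341 of these reads. In single libraries other than demyelination control 1 the ttn.1 share ran from 42.9% to 85.2%. The summed split was 47.7% and 52.3% for the heavy chain genes myh7 and myh7l, and 56.3% and 43.7% for the fast troponin I genes tnni2b.2 and tnni2b.1. Demyelination 5 gave 147 of the 212 myh7 reads and 195 of the 232 myh7l reads. In single libraries with such reads the tnni2b.2 share ran from 0% to 100%. Fast heavy chain genes myhz1.1, myhz1.2, myhz1.3 and myhz2 lie side by side on chromosome 5, between 32206378 and 32309129, and had 8150 reads. Only 53.9% to 63.6% of each gene's reads were unique, against 93.8% over all genes, so the division of reads between these heavy chain copies is uncertain. A further gene, entered as myhz1.1_2 on chromosome 22, had 131 reads and is counted with the myhz reads in the ratios below.

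Light chain and heavy chain reads did not keep a fixed ratio. Per 100 reads of the fast light chain genes there were 4.78 to 8.16 myhz heavy chain reads in the P1 controls and 8.29 to 14.6 in the P2 libraries. There were 12.15 to 27 in the P3 libraries other than demyelination control 1 and demyelination 5, and 64.5 in demyelination 5. Titin had 1.07 to 4.94 reads per 100 light chain reads in P1, 4.62 to 9.07 in P2, 10.1 to 27 in the same 8 P3 libraries and 55.5 in demyelination 5. Demyelination 5 was also the most deeply read library, with 3528970 reads. In it ttn.1 and ttn.2 gave 2725 and 2616 reads, and the nebulin gene neb gave 557. 4AP control 5 had 9.04 myhz reads per 100 light chain reads, inside the range of the 4AP libraries, and 4.62 titin reads, inside that of the P1 controls and below the 6.85 to 9.07 of the 4AP libraries. What sets these ratios was not tested.

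**Figure D3:**
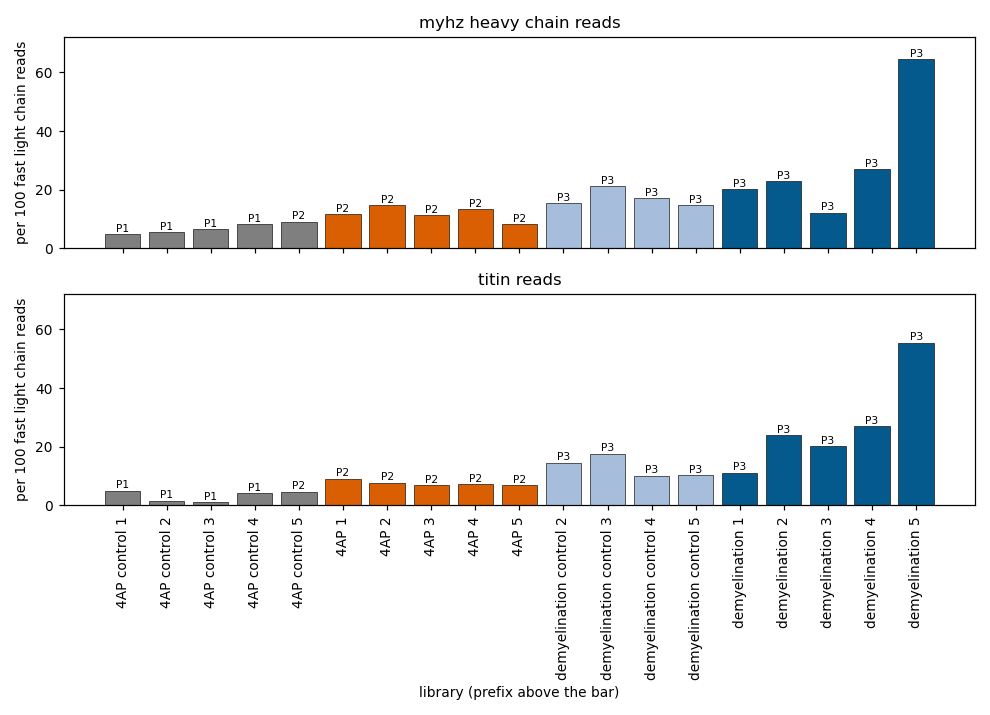
Bars give myhz heavy chain reads (upper panel) and titin reads (lower panel) per 100 fast light chain reads in 19 libraries, coloured by group, with the prefix above each bar. Demyelination control 1 is not drawn because it had 3 fast reads. Bars are lowest in P1 and highest in P3, with some overlap between neighbouring prefixes, and demyelination 5 reaches 64.5 and 55.5.

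Exposure to 4AP was compared with its own control; the title of the series places the study in adaptive and regenerative myelination. Of 5161 genes tested with edgeR's quasi-likelihood test, 674, or 13.1%, passed an adjusted p of 0.05, with 154 higher (2.98%) and 520 lower (10.1%) in 4AP. Enough reads for the test were found for 31 of the 76 members, and 5 of these 31 passed, all lower in 4AP. They were tnnt2d, mylpfb, tnni2a.4, myl13 and myl12.1. That is a share of 16.1%, near the 13.1% of all genes tested. At an unadjusted p under 0.05 there were 11 of the 31 members and 33.2% of all genes tested. The median log2 fold change was -0.11 over the 31 members and 0.19 over all genes tested. Most of the 45 untested members were cardiac (19) or fast (11), and they could not be assessed at this depth.

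The gene tnnt2d, named for the cardiac troponin T gene of mammals, showed the largest fall of any member. It lies on the plus strand of chromosome 25, positions 20215964 to 20226584. Its normalised CPM were 122, 190, 161, 182 and 29.01 in 4AP controls 1 to 5 and 16.7, 14.4, 31.3, 12.3 and 17.04 in 4AP libraries 1 to 5. The first 4 controls lay above every 4AP library, and control 5 lay inside the 4AP range. Its log2 fold change was -2.87 ± 0.47 (SE, n = 5 against 5, adjusted p by edgeR = 0.00316), from a mean of 137 ± 65.8 to 18.4 ± 7.51 CPM (SD). It was called in all 10 fits that left out 1 library. With the prefix as a term, which compares 4AP with control 5 alone, its log2 fold change was -0.70 ± 0.53 (adjusted p by edgeR = 0.999). Relative to mylpfa its reads stood at 8.06 to 10.9 per 100 in P1, at 1.84 to 3.73 in P2 with control 5 at 2.43, and at 0.803 to 6.09 in 9 P3 libraries. tnnt2d also gave 51.8% to 77.8% of the reads of the cardiac class in the 4 P1 controls, a share of more than 50% that it reached in no other library. In these 4 controls together it had 125 of the 197 reads of the class, and 10 of the 21 cardiac members had none. The class rests on the symbol, and whether the tnnt2d reads came from heart or from other fibres was not tested.

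Among the fast muscle genes, 3 fell. mylpfb, the second regulatory light chain copy, had normalised CPM of 168, 335, 255, 262 and 73.2 in the controls and 27.9, 69.3, 127, 46.8 and 22.05 in 4AP, a log2 fold change of -1.87 ± 0.47 (adjusted p by edgeR = 0.0188). tnni2a.4, which blocks actin and myosin binding at rest, had 1019, 1165, 1091, 1433 and 477 in the controls and 588, 315, 703, 244 and 177 in 4AP, a log2 fold change of -1.36 ± 0.37 (adjusted p by edgeR = 0.0269). The light chain gene myl13 had 467, 562, 598, 589 and 159 in the controls and 267, 97.2, 322, 76.9 and 73.2 in 4AP, a log2 fold change of -1.51 ± 0.45 (adjusted p by edgeR = 0.0365). In each of the 3 genes the P1 controls were above all 4AP libraries and control 5 was within their range, the same split as in the exon share and the number of genes read, whose part in these values was not tested. When 1 library at a time was left out, mylpfb was called in 9 of 10 fits, tnni2a.4 in 3 and myl13 in 3. The call of mylpfb was lost without 4AP control 2, at an adjusted p of 0.0597, and those of tnni2a.4 and myl13 held only without 4AP control 5, 4AP library 1 or 4AP library 3. The other 10 fast members tested did not pass. mylpfa came nearest to the threshold with -0.90 ± 0.32 (adjusted p by edgeR = 0.0651), and mylz3, with -0.13 ± 0.35 (adjusted p by edgeR = 0.801), was above 0 with library totals, without the filter or with exon reads. Of the 13 fast members tested, 11 had a fold change below 0, against 8 of 13 with library totals and 8 of 12 without 4AP control 5. Over all genes tested, 2216 of 5161 were below 0, against 1512 of 5161 with library totals and 1903 of 4373 without 4AP control 5.

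Among the non-muscle members, myl12.1 fell. It encodes a regulatory light chain of non-muscle myosin. Its normalised CPM were 396, 544, 498, 466 and 301 in the controls and 256, 227, 306, 236 and 209 in 4AP. Control 5 was again the lowest control and lay just under 4AP library 3. The log2 fold change was -0.83 ± 0.25 (adjusted p by edgeR = 0.0381), and the call held in 2 of 10 fits that left out 1 library, those without 4AP control 5 or 4AP library 3. The other 7 non-muscle members tested did not pass, and myh9b, a non-muscle heavy chain gene read mostly in introns, had the largest fold change of them, 1.51 ± 0.53 (adjusted p by edgeR = 0.0610). The actin-stabilising tropomyosin gene tpm4a had 0.87 ± 0.39 and tpm3 had -0.21 ± 0.28, with adjusted p by edgeR of 0.134 and 0.611. The class of both tropomyosin genes rests on the symbol. Only 8 of the 10 non-muscle members were tested, and their median log2 fold change was 0.20.

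No slow, pan-sarcomere or smooth muscle member passed. All 5 pan-sarcomere members tested had fold changes above 0, as did 2945 of all 5161 genes tested. The median log2 fold change was 0.50 for these 5 members and 0.19 for all genes tested. ttn.2 had 5, 4, 4, 4 and 46 reads in the controls and 27, 94, 80, 98 and 38 in 4AP, a log2 fold change of 1.18 ± 0.42 (adjusted p by edgeR = 0.0674). The skeletal actin gene acta1b had 4, 1, 0, 3 and 63 reads in the controls and 7, 117, 120, 65 and 34 in 4AP, a log2 fold change of 1.29 ± 0.69 (adjusted p by edgeR = 0.195). In both genes the 4 P1 controls were low and control 5 lay among the 4AP libraries. The slow members tested were tpm2, at 0.72 ± 0.48, and the light chain gene myl10, at -0.04 ± 0.38, with adjusted p by edgeR of 0.300 and 0.945. For myl9b, the smooth muscle light chain gene, the value was 0.37 ± 0.46 (adjusted p by edgeR = 0.571). Groups overlapped in normalised CPM for all 31 members, against 9.53% of all genes tested in which they did not.

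**Figure D4:**
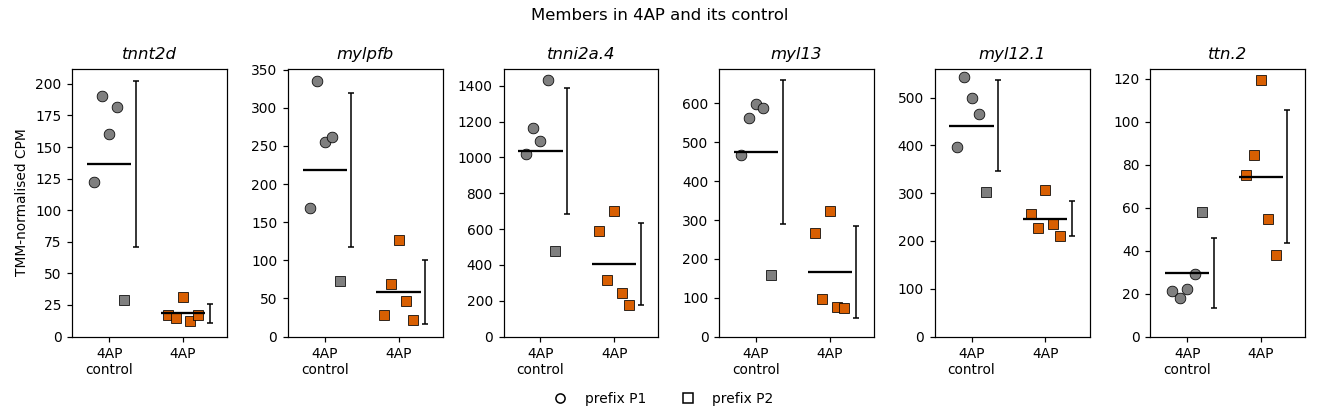
Normalised CPM (linear axes from 0) of the 5 called members and of ttn.2 in each 4AP control and 4AP library, with the group mean as a line and ± SD beside it (n = 5). Circles are P1 libraries and squares P2 libraries. The square among the controls, 4AP control 5, lies with the 4AP libraries in each panel, at 29.01 for tnnt2d and 477 for tnni2a.4.

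Scaling bore on these calls. Library totals here are the summed reads of the genes that passed the filter, not of all genes. With library totals in place of normalisation factors the median log2 fold change of all genes tested was 0.55. The 5 members were still below 0, with only tnnt2d called among them, at -2.46 (adjusted p by edgeR = 0.0204). ttn.2 and myh9b were then called higher, at 1.53 and 1.84.

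The comparison turned on 4AP control 5. Without it, 2140 of 4373 genes tested were called (48.9%), 1155 higher (26.4%) and 985 lower (22.5%), and 16 of 29 members tested. The same 5 members were called lower, together with mylpfa at -0.93, tnnc2 (fast troponin C, the calcium sensor) at -1.26 and actn3b (fast alpha-actinin) at -1.42 on the log2 scale. Introns held 57.0% of the actn3b reads. Higher in 4AP were acta1b at 2.91, myh9b at 2.63, acta1a at 2.21, ttn.2 at 1.80, myl12.2 at 1.58, tpm2 at 1.48, tpm4a at 1.42 and myh10 at 0.91. In that fit every control carried P1 and every 4AP library P2, so the prefix and 4AP cannot be told apart. When the prefix entered the fit of all 10 libraries, edgeR called 0 genes and 0 members, 4AP then being set against the single P2 control. The log2 fold changes were -0.31 for mylpfb, -0.24 for tnni2a.4 and -0.29 for myl12.1 there, and those of myl13 and acta1b changed sign to 0.04 and -0.08.

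**Figure D5:**
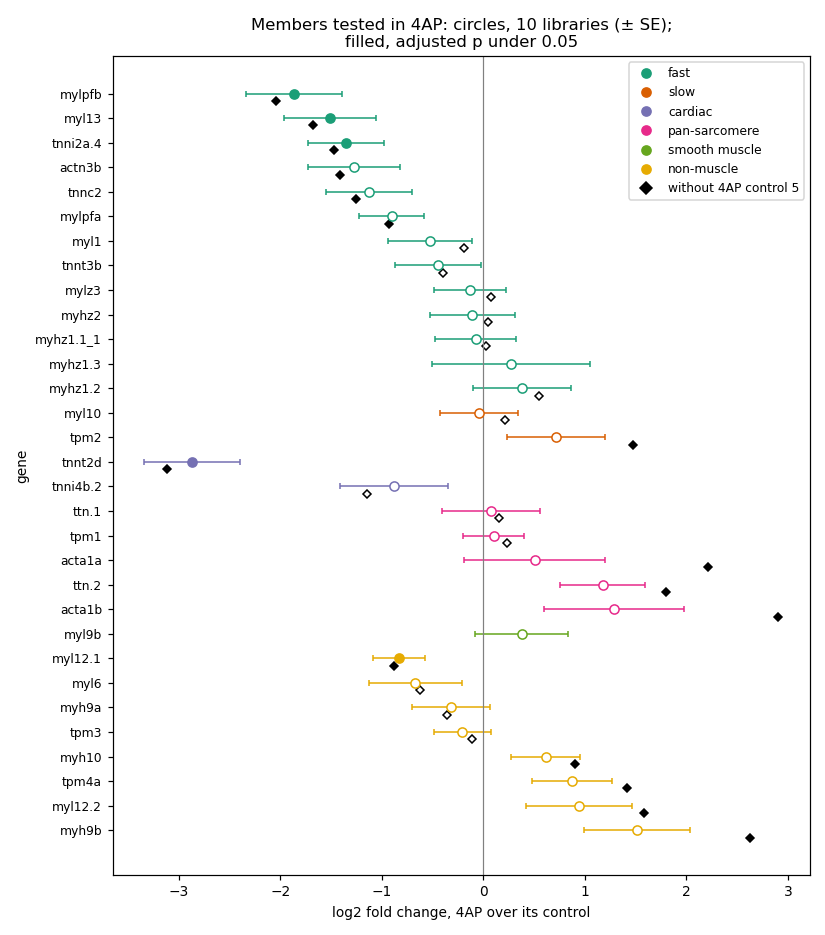
Log2 fold change of 4AP over its control for the 31 members tested, grouped by class, with circles for all 10 libraries (bars ± SE) and diamonds without 4AP control 5, filled where the adjusted p was under 0.05. Falls such as tnnt2d (-2.87 and -3.12) are close in both fits, and acta1b moves from 1.29 to 2.91.

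The P1 controls and control 5 were also set side by side read for read. The 4 P1 controls held 994426 gene reads together and control 5 held 897620. In the 4 P1 controls together, 18 of the 76 members had no read, 10 of them cardiac, and 16 of these 18 had reads in control 5, 162 in all. Over all genes the gap was no smaller. Of the 20281 genes read in control 5, 29.9% had no read in the P1 controls, and of the 73 members read there 21.9% had none. The 16 included telethonin (tcap), which caps titin at the Z disc, with 23 reads in control 5, the atrial-type light chain gene myl4 with 28, and the heavy chain gene myhb with 27. The heart light chain gene myl7 had 2 reads in the P1 controls together and 31 in control 5. Of the skeletal actin genes in the rule, acta1b had 8 and 63 reads, and acta1a 6 and 52. The actin gene actc1b, which the rule leaves out, had 175 to 772 reads per 4AP control (618 to 1256 CPM). In the other direction tnnt2d had 125 and 23, myl13 had 424 and 126, mylpfb had 196 and 58, and tnni2a.4 had 893 and 378. The summed fast reads were 4051 and 3291, and the summed non-muscle reads 744 and 746. These libraries carry the same label, the values are given without a test, and tcap, myl4, myhb and myl7 were picked here after their values were seen.

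Lists of other muscle genes and of neighbouring tissues were read in the 4AP comparison against the same background, 13.1% of genes called and 10.1% called lower. Their part in the members' values was not tested. Of 23 genes of the muscle sarcoplasm and calcium handling, 12 were tested, 2 fell and 0 rose, with a median log2 fold change of -0.55. A share of 2 in 12 is near the background. The genes that fell encode the calcium buffers pvalb4, at -2.27 ± 0.42 (adjusted p by edgeR = 0.00430), and pvalb1, at -0.96 ± 0.31 (adjusted p by edgeR = 0.0470). That list's summed CPM ranged from 4045 to 9512 in controls and from 2737 to 6863 with 4AP. In the demyelination experiment it ranged from 3390 to 11651 in controls and from 3811 to 10664 in demyelination. The 3390 is that of demyelination control 1, where 1 read equals 847 CPM, and the range without that library is not given here. Each gene of the list had a read in each group. Of 29 genes of the Z disc, M band and sarcomere assembly, 5 were tested and 1 fell, ldb3b at -1.26 ± 0.40 (adjusted p by edgeR = 0.0466). None of the 5 tested sarcomere genes that the name rule leaves out (such as smyhc1 and actc1a) passed, nor any of the 3 tested myogenic factors. Summed myogenic factor CPM ranged from 49.0 to 164.9 (median 75.4) in the 4AP controls and from 162.7 to 248.2 (median 208) in 4AP, so the ranges overlapped. None of the 6 tested pericyte and vascular smooth muscle genes, 5 tested neuron genes or 7 tested genes of myelinating oligodendrocytes passed. Outside muscle, 8 of 11 tested exocrine pancreas genes, 2 of 2 tested microglia and macrophage genes and 1 of 8 tested skin genes fell, and 2 of 7 tested OPC genes, cspg4 and sox6, rose. Summed exocrine pancreas CPM ranged from 13354 to 42513 in the 4AP controls and from 6322 to 14775 in 4AP. Summed skin CPM ranged from 5744 to 15000 and from 6692 to 12444.

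Demyelination was compared with its own control, the regenerative setting of the study. With it, edgeR called 0 of 823 genes tested (0%), with 78 genes (9.48%) at an unadjusted p under 0.05, and 0 of the 11 members that could be tested, with 1 at an unadjusted p under 0.05. DESeq2 called 1 gene, and 0 members. The 11 members were 6 fast, 2 pan-sarcomere and 3 non-muscle genes, and no slow, cardiac or smooth muscle member could be tested. The member nearest to the threshold was ttn.1. Its reads were 0, 57, 24, 37 and 40 in the controls and 10, 15, 39, 15 and 2725 in demyelination, which as normalised CPM were 0, 302, 278, 485 and 265 against 419, 589, 1102, 333 and 1322. The groups overlapped, and the log2 fold change was 1.28 ± 0.47 (adjusted p by edgeR = 0.459). ttn.2 had 0, 286, 324, 354 and 265 against 460.5, 275, 311, 266 and 1269 normalised CPM, with only demyelination libraries 1 and 5 above every control, and a log2 fold change of 0.89 ± 0.50 (adjusted p by edgeR = 0.459). Without demyelination 5 it was 0.12.

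The fast genes gave no call in demyelination. mylpfa was at 0.18 ± 0.46, mylz3 at 0.14 ± 0.61, tnni2a.4 at -0.22 ± 0.49 and the heavy chain gene myhz1.1 at 0.72 ± 0.51 on the log2 scale, with adjusted p by edgeR of 0.924, 0.955, 0.913 and 0.563. The non-muscle members tested, myl12.1, tpm4a and tpm3, had log2 fold changes of -0.08, -0.09 and -0.07. Groups did not overlap for 0 of the 11 members and for 2.07% of all genes tested. With errors of this size, the missing calls do not show that these genes were unaltered. Leaving out any single library gave 0 member calls. Without demyelination control 1, edgeR tested 1157 genes and 14 members and called 0 of either, with 149 genes and 1 member at an unadjusted p under 0.05. None of the companion lists gave a call.

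The difference between both responses, 4AP against its control minus demyelination against its control, was fitted on all 20 libraries. edgeR called 66 of 3981 genes (1.66%), 52 of them lower (1.31%), and 1 of 31 members tested, tnnt2d, which was lower. Its reads in the demyelination experiment were 0, 3, 7, 2 and 11 in the controls and 3, 2, 3, 1 and 116 in the demyelinated fish, from which no demyelination response could be tested alone. The difference was -3.14 ± 0.75 on the log2 scale (adjusted p by edgeR = 0.0388), and it was called in 5 of 20 fits that left out 1 library (4AP control 5, 4AP library 3 or demyelination library 2, 3 or 4), with adjusted p from 0.000350 to 0.0882. Without demyelination control 1 it was -3.01 (adjusted p by edgeR = 0.0504), and 37 of 5014 genes and 0 of 34 members were called. At an unadjusted p under 0.05 there were 5 of these 34 members and 863 of the 5014 genes. The call was also lost with library totals (-2.61, adjusted p 0.0619), without the filter (-2.71, 0.0715) and with the replicate block (-2.82, 0.0920). With the prefix as a term it was -0.96 ± 0.79 (adjusted p by edgeR = 1.00). The next member by p was the non-muscle heavy chain gene myh9a, at -1.54 ± 0.63 (adjusted p by edgeR = 0.205). All 12 fast members tested had a difference below 0, as did 1954 of all 3981 genes tested. The median was -0.74 for these 12 members, against 0.03 for all genes tested. With library totals in place of normalisation factors 8 of the 12 and 1175 of the 3981 genes were below 0. The median of the 12 was then -0.21 and that of all genes tested 0.52.

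The remaining classes hold genes with few reads. Of the cardiac genes, the troponin I gene tnni4b.2 had 8 to 15, 12 to 28, 1 to 10 and 1 to 159 reads per library in the 4 groups. In 4AP it had a log2 fold change of -0.88 ± 0.53 (adjusted p by edgeR = 0.246). mybpc3, the cardiac myosin-binding protein C, had at most 21 reads in any library except demyelination 5, where it had 116, and 59.0% of its reads lay in introns. The slow troponin C gene tnnc1b had 0 to 25, 7 to 27, 0 to 8 and 0 to 99 reads. myl10 gave more than 50% of slow reads in 6 libraries, among them demyelination controls 2 to 5. Of the smooth muscle genes, acta2 had 0, 1, 1, 1 and 18 reads in the 4AP controls and 5, 23, 20, 34 and 3 in 4AP, again with control 5 among the 4AP libraries. myl9a had 2 to 11 reads in the 4AP controls and gave 64.7% and 60.0% of smooth muscle reads in controls 2 and 4. The smooth muscle heavy chain gene myh11a had 62.4% of its reads in introns. tpm1, made in several striated muscles, had 13, 30, 27, 14 and 102 reads in the 4AP controls and 35, 139, 91, 255 and 111 in 4AP, a log2 fold change of 0.10 ± 0.30 (adjusted p by edgeR = 0.825).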

How the data were processed

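RNA of sorted OPCs from 20 samples was counted in 20 deposited tables, each with total, unique, exon and intron read counts per gene, per the file headers. Per the labels' protocols, libraries were made with the QIAseq UPX 3' kit from 1 ng or 4 ng of RNA, and the amount per library is not given in the sources used here. The genome build is GRCz11, per the submitters' processing notes. The aligner, annotation and strand setting, and whether molecular identifiers were collapsed, are not given in the sources used here, so copies of 1 molecule may have been counted more than once. Total gene reads equalled exon plus intron reads in all 20 tables.

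Total gene reads were tested with edgeR 4.0.16 (limma 3.58.1, R 4.3.3), using TMM factors, filterByExpr (minimum count 10, minimum total 15) and the robust quasi-likelihood test. Benjamini-Hochberg adjustment ran over all genes tested, with 0.05 as the threshold for a call. The 10 libraries of each experiment were fitted apart, and the difference of responses on all 20 libraries. Library sizes in the edgeR fits were the summed reads of the genes that passed the filter. Normalised CPM divide by this sum times the TMM factor, and library totals are the sum alone. Standard errors are the log2 fold change over the root of F. On simulated counts with 100 genes changed by 2 log2 units, 61 were recovered in the 4AP comparison, 54 in demyelination and 14 in the difference. With 100 genes changed by 1 unit these numbers were 9, 15 and 0.

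The genes named are the 3 members of each class with the largest mean CPM, every called member, the 2 members with the smallest p in a comparison, and a member with over 50% of its class in 1 library. Other members given with values, such as myh9b, myhz1.1, tnnc2, actn3b, acta1a, myl12.2, myh10, neb, tnnt3b, tnni3k, tcap, myl4, myhb and myl7, lie outside this rule and were picked after their values were seen. Members, classes, companion lists and tests were chosen with earlier results of these data known. All 76 identifiers matched the reference gene table, and 2 symbols of the companion lists, vmhc and myocd, had no entry in the tables. The 40 pairs of libraries within a group were compared for duplicates. In 39 their counts differed (chi-square p under 0.05), and the exception, demyelination controls 1 and 2, rested on 13 genes and could not be judged. Samples were not treated as paired by replicate number, and the block is given as an alternative. Other alternatives were DESeq2 1.42.0, its size factors, library totals, no filter, exon reads, the prefix as a term and each library left out. Unique reads were added as an alternative after the data were seen.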

Additional observations from a re-analysis of the deposited data

Results flagged for a closer look

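A library was set apart where its value lay far from the other 4 of its group, by Dixon's ratio above 0.71. This was the case in 15 of 116 groups of values. The 1 in 20 expected of independent normal values is no yardstick here, because groups share libraries and class sums contain named members. In the 4AP controls it concerned acta1b in control 5, at 70.2 CPM against 0 to 18.4 in the others. In 4AP library 3 it concerned mybpc3 at 33.2 CPM (others 5.72 to 11.2), tnnc1b at 42.7 (11.4 to 19.6) and tnnt2d at 33.2 (12.6 to 16.8).

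Demyelination control 1 gave 8 of the 15. With 1180 reads, 1 read there equals 847 CPM, which was the value of the slow sum (others 127 to 278), the cardiac sum (209 to 357), acta1b (56.5 to 100.05), tnni4b.2 (24.8 to 63.7) and tpm2 (28.3 to 57.8). The non-muscle sum, myl12.1 and ttn.2 were at 0 CPM there, against 749 to 937, 209 to 273 and 176 to 246. In demyelination library 5 the pan-sarcomere sum was 1849 CPM (others 541 to 835) and ttn.2 was 741 (136 to 270). In demyelination library 1, tnni2a.4 was at 1226 CPM against 235 to 443.

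In the test of the difference between both responses, tnnt2d passed at -3.14 on the log2 scale. The call was lost in 15 of 20 fits that left out 1 library, with library totals, without the filter, with the replicate block and with the prefix as a term (-0.96), and the demyelination response of this gene could not be tested alone.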

How the results depend on the processing

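The count of genes called in the 4AP comparison, 674, was 194 with exon reads, 448 with the replicate block and 0 with the prefix as a term. Members called there, 5, numbered 3 with library totals, 8 with DESeq2, 2 with exon reads and 0 with the prefix. The count of all genes called with DESeq2 in the 4AP comparison is not given here. Its 8 member calls are therefore given without a background share, and they are no added evidence for the members. Library totals moved the median log2 fold change of all genes from 0.19 to 0.55 and the calls from 154 higher and 520 lower to 411 and 207. In demyelination, 7 genes were called without the filter and 1 with DESeq2. Genes called in the difference numbered 114 without the filter, 122 with DESeq2, 39 with exon reads, 8 with the replicate block and 0 with the prefix. The single member called there, tnnt2d, was lost with library totals, without the filter, with the replicate block and with the prefix, which left 0 members each. With the prefix, acta1b reversed to -0.0775 and myl13 to 0.0428 in 4AP. The log2 fold change of mylz3 reversed to 0.21 with library totals, 0.0312 without the filter and 0.0431 with exon reads. The mean summed CPM of fast members became 6394, 7635 and 7121 with exon reads in the 4AP controls, the demyelination controls and demyelination, and 6095 with TMM factors in the 4AP controls. These means have other denominators and are no change in level. The exon setting divides by the exon reads of the library, which were 68.0% of all gene reads but 98.6% of fast reads. The TMM setting divides by the reads of the genes tested in the difference, times the factor. The causes of the other shifts were not tested.

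Leaving out each library in turn gave 271 to 2140 genes and 1 to 16 members in 4AP, 0 to 1 genes and 0 members in demyelination, and 3 to 738 genes and 0 to 2 members in the difference. The 2140 genes and 16 members, and the 738 genes and 2 members, were reached without 4AP control 5. Over the same fits mylz3 ran from -0.33 to 0.0824. Correlations of same-numbered libraries ran from -0.04 to 0.10 in the 4AP experiment and from -0.14 to 0.14 in the other. A library correlated best with its own number in 2 of 5 and 1 of 5 cases. Whether replicate numbers pair the samples could not be settled, as libraries were few and 4AP controls 1 to 4 differ in prefix from the 4AP libraries. At these depths 31 of 76 members could be tested in the 4AP comparison and in the difference, and 11 in demyelination.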
